A study of Homo sapiens and Mus musculus with 19 samples.

Results

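The transcripts of p53 and of 9 of its well-known target genes were followed in the chromatin-associated RNA (caRNA) of mouse embryonic stem cells (mESCs) after knockdown of the RNA methyltransferase Nsun2. The members were chosen by gene symbol: Trp53 itself, which encodes p53, and Mdm2, Cdkn1a, Ccng1, Trp53inp1, Bbc3, Bax, Zmat3, Phlda3 and Btg2. These 10 genes were among 54446 genes listed in each mouse table. All 10 passed the filter on low counts, which left 27603 genes for testing.

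p53 is a transcription factor that is kept at a low level in unstressed cells, because the ubiquitin ligase Mdm2 binds it and marks it for degradation. Stress frees p53 from Mdm2, after which p53 binds paired response elements in its target genes and raises their transcription, Mdm2 included, which closes a feedback loop. The targets stop the cell cycle (Cdkn1a, Btg2), start apoptosis (Bax, Bbc3, Phlda3) or restrain and modulate p53 itself (Mdm2, Ccng1, Trp53inp1). Embryonic stem cells are known for carrying abundant p53 while cycling rapidly.

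Both groups were mESCs, grown in serum with LIF and the inhibitors CHIR99021 and PD0325901, cleared of feeder cells by passaging on gelatin, and transfected with siRNA by lipofection. The siControl group (labelled control) received a control siRNA and the siNsun2 group (labelled Nsun2 knockdown) siRNA against Nsun2. Nsun2 places 5-methylcytosine on RNA. Each group had 3 libraries of ribosomal-RNA-depleted, stranded caRNA, taken from the chromatin pellet that remained after cytoplasm and nucleoplasm had been removed. This pellet is rich in unspliced transcripts, so a value here is the amount of a gene's RNA on chromatin relative to the other genes, not the amount of mRNA or protein in the cell. p53 protein was not measured in these files. The study describes its genome-wide data in general as coming from biological replicates. The labels do not say whether the 3 libraries of a group came from separate cultures, so p-values measure only the spread between these libraries, which may be technical.

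The knockdown was checked first. Nsun2 stood at 129 ± 3.45 CPM (the reads of a gene relative to the gene reads of its library, scaled by TMM, mean ± SD, n = 3) in siControl and at 103 ± 3.55 CPM in siNsun2. The log2 change was -0.34 (adjusted p = 2.78e-16, edgeR), with all 3 siNsun2 libraries below all 3 siControl libraries. It was called lower under all 5 scalings of the libraries, by -0.40 to -0.14. Genes of its level, 64 to 128 CPM, had a median change of -0.21 under TMM, and 80.3% of them were called lower. The call of Nsun2 is therefore shared with most genes of its level. A530095I07Rik, Gm17108, Srd5a1 and Tent4a overlap Nsun2 on the other strand. An siRNA acts mainly on cytoplasmic mRNA, so the level on chromatin is a partial check of the knockdown.

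The libraries held 58078323 to 66832780 reads in genes. Reads outside annotated genes made up 19.9% ± 0.348 of records in siControl and 29.4% ± 0.464 in siNsun2. The 1135 olfactory receptor genes, which mESCs are not expected to transcribe, serve here as the background. For this background, and for every fold over it, CPM was taken relative to all read records of a library, without TMM. These folds therefore cannot be derived from the TMM-scaled levels given elsewhere. On that scale the background stood at 0.0190 ± 0.00137 CPM per kb of gene span in siControl. It stood at 0.0280 ± 0.00157 in siNsun2, without overlap between libraries. All 10 members lay above that background in both groups, by 11.0-fold (Bbc3 in siNsun2) to 372-fold (Ccng1 in siControl). Of the stem cell markers Esrrb stood at 531 ± 8.19 CPM in siControl and 473 ± 5.87 CPM in siNsun2. In the same order Pou5f1 stood at 33.3 ± 2.37 and 33.5 ± 1.70 CPM and Klf4 at 63.9 ± 3.30 and 36.4 ± 0.544 CPM. Sox2 was at 0 in all libraries and lies inside Sox2ot on the same strand.

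Trp53 and 4 of its 9 targets were higher on chromatin after Nsun2 knockdown, and none of the 10 was called lower. The higher genes were Btg2, Trp53, Mdm2, Ccng1 and Trp53inp1, with increases of 6.16% to 30.2%. The count of 5 of 10 stood beside 25.8% of all genes tested that were called higher, and the count of 0 of 10 beside 24.3% that were called lower (edgeR quasi-likelihood test with TMM scaling, adjusted p under 0.05). Among the genes that, like every member, lay at least 10 times above the background, 4.77% were called higher and 56.6% lower. The size of the members' changes, and for most of them the call, moved with the scaling of the libraries, as described after the single genes. Whether the libraries of the groups overlapped is given below for each gene as a description only. The share of all genes whose levels separate in this way was not counted.

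**Figure D1:**
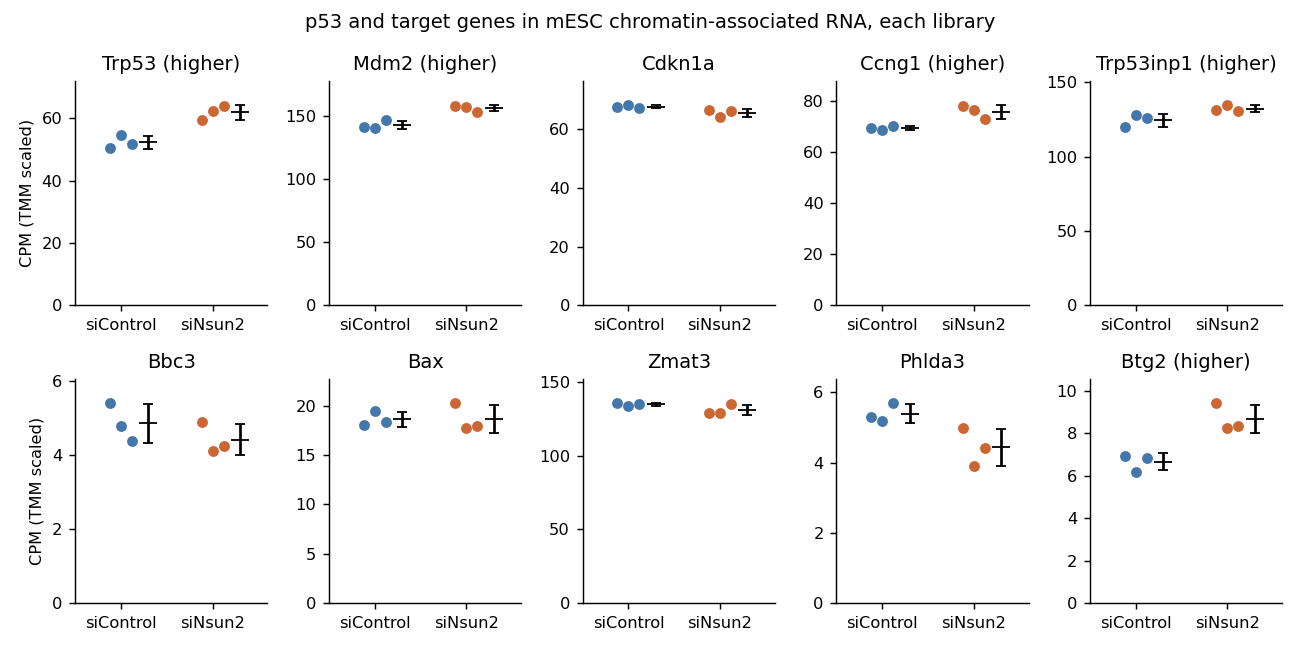
Level of each of the 10 genes in every library, as TMM-scaled CPM on a linear axis from 0. Points are libraries (blue siControl, orange siNsun2, 3 each), and the bar beside them is the mean ± SD. Trp53, Mdm2, Ccng1, Trp53inp1 and Btg2 have every siNsun2 point above every siControl point, and Cdkn1a and Phlda3 have every siNsun2 point below. The share of all genes separated in this way was not counted.

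Trp53 itself (chr11:69580359-69591873, mm10, plus strand) had 50.3, 54.6 and 51.7 CPM in the 3 siControl libraries and 59.4, 62.2 and 64.1 CPM in the 3 siNsun2 libraries. The groups did not overlap, and the highest siControl library lay below the lowest siNsun2 library. The log2 change was 0.25 (SE 0.04, adjusted p = 5.2e-07), an increase of 18.5%. The gene encodes the transcription factor at the centre of the pathway, and it was called higher under every alternative tried, with log2 changes of 0.18 to 0.44.

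Mdm2 (chr10:117688875-117710758, minus strand), the ubiquitin ligase that holds p53 down, had 141, 141 and 147 CPM in siControl and 158, 158 and 154 CPM in siNsun2. All siNsun2 libraries were above all siControl libraries, with a gap that was narrower relative to the level than for Trp53. Its log2 change was 0.13 (SE 0.03, adjusted p = 6.69e-05). Mdm2 lost its call with DESeq2 size factors, where the log2 change was 0.07 (adjusted p = 0.0646).

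Ccng1 encodes cyclin G1, an early p53 target that recruits a phosphatase to Mdm2 (chr11:40748552-40755311, minus strand). It had 69.5, 68.7 and 70.1 CPM in siControl and 78.1, 76.4 and 72.9 CPM in siNsun2. The siControl libraries were tightly grouped, and the siNsun2 libraries were spread over a wider range above them. The log2 change of Ccng1 was 0.13 (SE 0.04, adjusted p = 0.00297). Without siNsun2 replicate 1, its highest library, the log2 change was 0.10 and the adjusted p 0.0543.

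Trp53inp1 (chr4:11156431-11174379, plus strand), a stress-induced nuclear protein that acts with p53, had 120, 128 and 126 CPM in siControl and 131, 135 and 130 CPM in siNsun2. The groups did not overlap, but the highest siControl and the lowest siNsun2 library were close. Its change was the smallest of the 5 calls, 0.09 on the log2 scale (SE 0.03, adjusted p = 0.0124). The call was lost without siControl replicate 1, its lowest library (log2 change 0.05, adjusted p = 0.19), and without siNsun2 replicate 2, its highest (0.07, adjusted p = 0.0511).

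Of the cell cycle targets, Btg2 was called and Cdkn1a was not. Btg2, an antiproliferative protein that joins mRNA deadenylases to their targets (chr1:134075170-134079120, minus strand), had 6.95, 6.20 and 6.85 CPM in siControl and 9.45, 8.25 and 8.35 CPM in siNsun2. Every siNsun2 library was above every siControl library. Btg2 had the largest log2 change of the 10 genes under TMM, 0.38 (SE 0.11, adjusted p = 0.00249), on 368 to 593 reads per library. It was called higher under every alternative tried, with log2 changes of 0.28 to 0.57.

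Cdkn1a encodes the cyclin-dependent kinase inhibitor through which p53 arrests cells in G1 (chr17:29090976-29100727, plus strand). It had 67.6, 68.2 and 67.1 CPM in siControl and 66.5, 63.98 and 66.1 CPM in siNsun2. The siNsun2 libraries were all below the siControl libraries, by little. The log2 change was -0.05 (95% interval -0.12 to 0.03, adjusted p = 0.318). The direction turned with the scaling: Cdkn1a was called lower with DESeq2 size factors (-0.11) and higher with total gene counts (0.14). AC167363.2 overlaps it on the other strand.

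Among the apoptosis genes none was called. Bax encodes the protein that opens the outer mitochondrial membrane (chr7:45461697-45466898, minus strand) and had 18.0, 19.5 and 18.4 CPM in siControl and 20.3, 17.7 and 17.9 CPM in siNsun2. The groups overlapped, with 1 siNsun2 library above all others and the other two below the siControl range. The log2 change of Bax was 0.00 (95% interval -0.14 to 0.14, adjusted p = 0.988). Gm45808 overlaps Bax on the same strand, where reads shared by both genes are counted for neither, so the level of Bax is uncertain.

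Bbc3 encodes PUMA, a BH3-only protein that sets Bax free (chr7:16308393-16318205, plus strand). It had 5.42, 4.78 and 4.39 CPM in siControl and 4.91, 4.11 and 4.26 CPM in siNsun2, so that the groups overlapped. The log2 change was -0.14 (95% interval -0.41 to 0.14, adjusted p = 0.429). Bbc3 lay closest to the background of the 10 genes, at 18.0-fold in siControl and 11.0-fold in siNsun2, and a gene of its span at background would account for 5.66% and 9.22% of its level.

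Phlda3, whose PH domain competes with the survival kinase Akt for membrane lipids (chr1:135766119-135769136, plus strand), had 5.30, 5.19 and 5.70 CPM in siControl and 4.97, 3.90 and 4.42 CPM in siNsun2. All siNsun2 libraries were below all siControl libraries. Its log2 change of -0.28 (SE 0.14) did not pass (adjusted p = 0.0748). Phlda3 was called lower without siNsun2 replicate 1, its highest library in that group (-0.38, adjusted p = 0.0402), and with DESeq2 size factors (-0.34).

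Zmat3, a zinc finger protein that binds AU-rich RNA and is itself induced by p53, is the longest of the members (chr3:32334792-32366014, minus strand). It had 136, 134 and 135 CPM in siControl and 129, 129 and 135 CPM in siNsun2. One siNsun2 library lay within the siControl range and the other two below it. The log2 change of Zmat3 was -0.04 (95% interval -0.10 to 0.02, adjusted p = 0.229), and its direction turned with the scaling, from -0.10 with DESeq2 size factors to 0.17 with cyclic loess, with a call at both ends.

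Zmat3 was also the one member with a sequence match to the p53 response element in the annotated transcripts of GENCODE M21. It is shown because it is the DNA element through which p53 acts on its targets. The element consists of 2 adjacent half-sites of 10 bases, each with a core of 4 bases that starts with C and ends with G, and the consensus is the same on both strands. The match lies at chr3:32364331-32364350 (mm10, minus strand), 1664 bases downstream of the annotated gene start, in a retained-intron transcript and in intron 1 of the other 3 annotated transcripts compared, and the capitals mark both cores.
Zmat3 p53 element: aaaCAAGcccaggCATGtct
A match without mismatch outside the cores was found in transcripts of 17 of 55450 genes (0.0307%), and with at most 2 mismatches in 734 genes (1.32%). At most 3 mismatches gave 2617 genes (4.72%) and no further member. Only transcript sequence was searched, so the promoters and most introns of the other 9 genes were not read, and a match does not show that p53 binds there.

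The changes of the members were read beside those of all genes of a like level, because the change of a gene fell with its level across the whole table. Over the whole table of 27603 genes the log2 change had a median of 0.14. It was 0.60 for the 9313 genes under 1 CPM and 0.45 for the 5773 genes of 1 to 4 CPM. Above those levels, where the members lie, the median went down step by step to -0.22.

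Of the 1818 genes at 128 CPM or more, which include Mdm2, Trp53inp1 and Zmat3, 5.56% were called higher and 87.0% lower around a median of -0.22 on the log2 scale. Mdm2 lay 0.35 above that median on the log2 scale, Trp53inp1 0.31 and Zmat3 0.18, and 96.5%, 95.3% and 88.2% of these genes had a lower change than each in turn. All 3 were therefore in the upper part of their range, the uncalled Zmat3 included. Of the 1626 genes from 64 to 128 CPM, 7.56% were called higher and 80.3% lower. Ccng1 lay 0.34 and Cdkn1a 0.17 above their median of -0.21, with 93.7% and 84.9% of the genes below them. Trp53 lay 0.43 above the median of -0.19 of the 2088 genes from 32 to 64 CPM, of which 11.6% were called higher, and 91.8% of them had a lower change.

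The 4 members of lower level showed no common position. Bax lay 0.15 above the median of the 2208 genes from 16 to 32 CPM, with 73.2% of them below it. Among the 4777 genes from 4 to 16 CPM, with a median of 0.00 and 33.5% called higher, Btg2 lay 0.38 above the median, Bbc3 0.14 below (-0.14) and Phlda3 0.29 below (-0.29). For Btg2, Bbc3 and Phlda3 the share of genes with a lower change was 72.3%, 33.9% and 15.9%. These positions are a description of 10 chosen genes and no test was made of them.

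**Figure D2:**
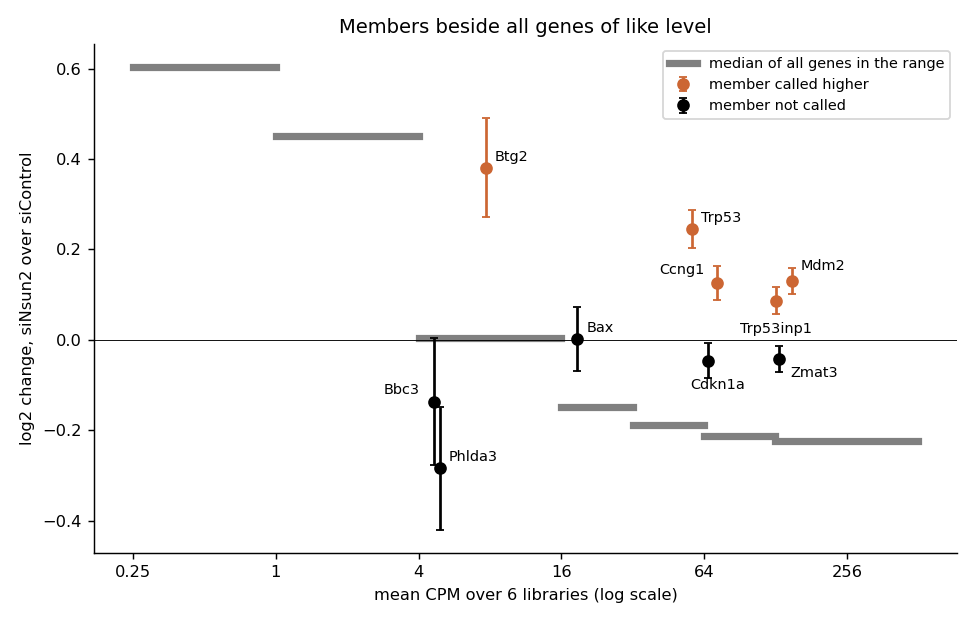
Log2 change of each gene (points, ± SE) against its mean TMM-scaled CPM over the 6 libraries on a log axis, with the median log2 change of all genes in each range of level as grey bars. The 7 genes above 16 CPM lie above the grey bar of their range, and Bbc3 and Phlda3 lie below theirs.

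How the libraries were put on one scale decided several of the calls. With DESeq2 size factors 2 of 10 members were called higher (Trp53 and Btg2) beside 23% of all genes, and Cdkn1a, Zmat3 and Phlda3 were called lower beside 28.2%. With total gene counts 8 of 10 were called higher beside 37.1% of all genes, Bbc3 and Phlda3 being the exceptions. None was called lower with total gene counts, beside 2584 of 27603 genes. Cyclic loess, which removes the dependence of change on level, gave 7 of 10 higher beside 15.1% of all genes, and Phlda3 lower beside 17.6%. Trp53 and Btg2 were called higher under each of these scalings.

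The scaling moved the median of all genes as well, from 0.07 with DESeq2 size factors to 0.32 with total counts and 0.33 with factors from genes above background, whereas cyclic loess set it at -0.02. A scaling that multiplies a whole library leaves the distance of a member from genes of like level as it was, and cyclic loess changed it by little for most members. Under cyclic loess Trp53 lay 0.45 above the median of its range, Mdm2 0.33, Ccng1 0.32, Trp53inp1 0.28, Zmat3 0.15, Cdkn1a 0.15 and Bax 0.13. Btg2 lay 0.35 above, and Bbc3 (-0.27) and Phlda3 (-0.41) lay further below than with TMM.

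**Figure D3:**
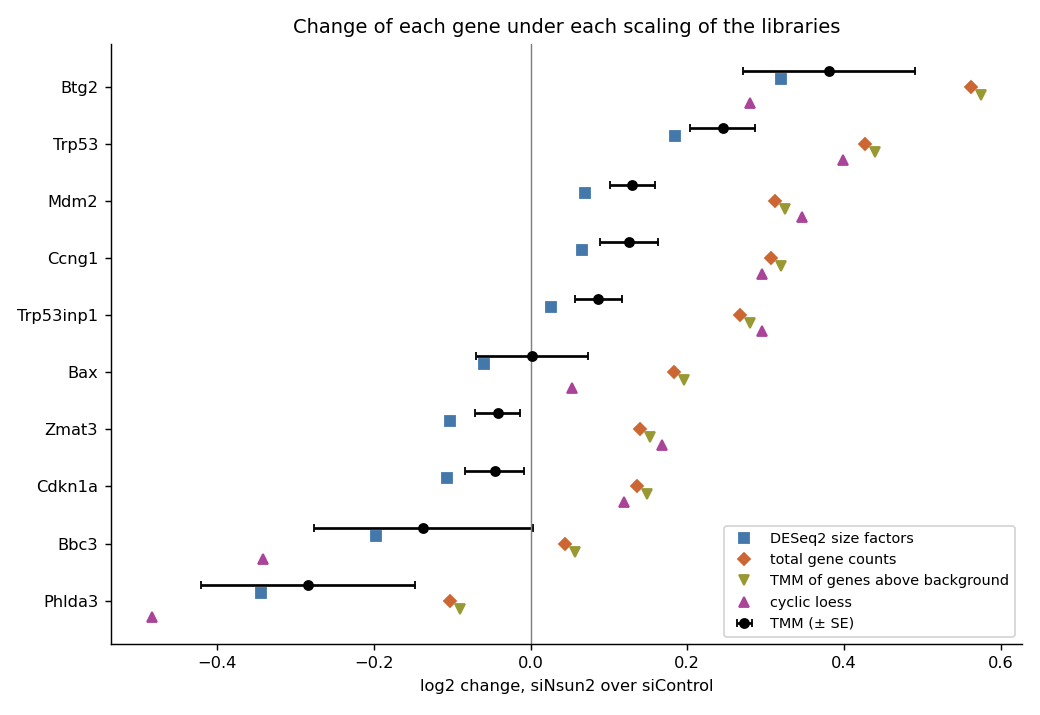
Log2 change of each gene under 5 scalings of the same 6 libraries. Black points are TMM with SE bars, and the other symbols are DESeq2 size factors, total gene counts, TMM factors from genes at least 10 times above background, and cyclic loess. Trp53 and Btg2 are right of 0 under each, Phlda3 is left of 0 under each, and Cdkn1a and Zmat3 have symbols on both sides.

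The ratio of each target to Trp53 within a library is the same under any scaling that multiplies the whole library, though not under cyclic loess, which shifts genes by level. It was taken as the log2 ratio of counts per kb of gene span, and the groups were compared with an exact two-sided permutation test, whose smallest possible p with 3 libraries in each group is 0.1. For 6 of 9 targets every siNsun2 library had a lower ratio than every siControl library, each at the smallest possible p of 0.1 (0.15 after Benjamini-Hochberg adjustment over 9 ratios). The same held for 80% of the 11096 other genes at least 10 times above the background and for 37.3% of all other genes tested, so that 6 of 9 is no more than the share among genes of such levels. The targets were Phlda3 (log2 ratio lower by 0.53, SE 0.14), Bbc3, Cdkn1a, Zmat3, Bax and Trp53inp1. The design could not reach the threshold, so the groups were separated without being called different.

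Cdkn1a stood 0.67, 0.56 and 0.62 above Trp53 on the log2 scale in siControl and 0.40, 0.28 and 0.29 above it in siNsun2. The difference between the group means was -0.29 (SE 0.05). Trp53inp1 was closer, with a difference of -0.16 (SE 0.04). The ratios of Mdm2 (-0.12, exact p = 0.2) and Ccng1 (-0.12, exact p = 0.2) overlapped between the groups, and Btg2 was the one target whose mean ratio was higher in siNsun2 (0.14, exact p = 0.5), also with overlap. Without siNsun2 replicate 1 the difference for Btg2 was 0.044, and under cyclic loess the change of Btg2 was smaller than that of Trp53 (difference -0.12).

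**Figure D4:**
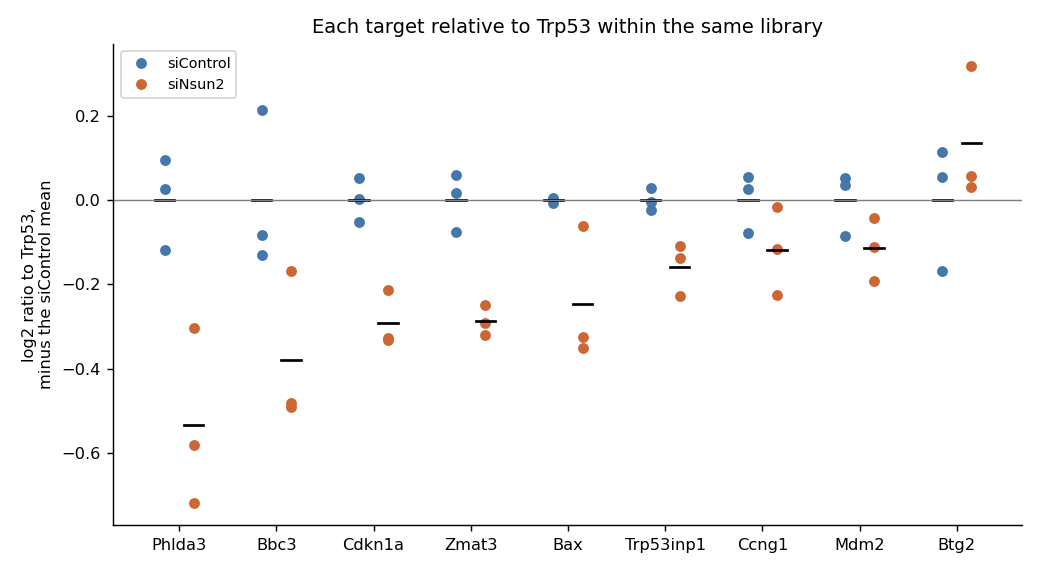
Log2 ratio of each target to Trp53 in every library, from counts per kb of gene span, shown as the distance from the siControl mean of that target. Blue points are siControl and orange points siNsun2, and bars are group means. Orange points lie below all blue points for Phlda3, Bbc3, Cdkn1a, Zmat3, Bax and Trp53inp1, and overlap them for Ccng1, Mdm2 and Btg2.

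The order of the levels was compared per kb of gene span. In siControl Ccng1 led with 10.3 ± 0.102 CPM per kb. Cdkn1a (6.94 ± 0.0558), Trp53inp1 (6.93 ± 0.240) and Mdm2 (6.54 ± 0.159) followed, and neighbours among these 3 overlapped between libraries. Trp53 (4.53 ± 0.187), Zmat3 (4.32 ± 0.0310) and Bax (3.58 ± 0.148) stood apart from one another, Phlda3 (1.79 ± 0.0899) and Btg2 (1.69 ± 0.104) overlapped, and Bbc3 was last at 0.496 ± 0.0530 CPM per kb.

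In siNsun2 Ccng1 again led with 11.2 ± 0.393 CPM per kb of span and Bbc3 was again last with 0.451 ± 0.0432. Cdkn1a (6.72 ± 0.138) ranked below Trp53inp1 (7.36 ± 0.126) and Mdm2 (7.16 ± 0.111), and Phlda3 (1.47 ± 0.177) below Btg2 (2.198 ± 0.168). No neighbours overlapped between libraries in this group. Ccng1, Trp53, Zmat3, Bax and Bbc3 kept their place. Per kb of merged exons Mdm2 led in both groups, with 28.2 ± 0.684 and 30.8 ± 0.479 CPM per kb, and 5 of 10 genes kept the rank they had by span in each group.

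The genes whose levels ran most like Trp53 over the 6 libraries were Prr14, Shf, 4930467D21Rik, Mup6 and Selenoi, with Pearson correlations of log2 CPM of 0.988 to 0.995 among 9297 genes of at least 10 CPM. Any gene with a steady increase from siControl to siNsun2 has a high value by this measure, and any with a steady decrease a strongly negative one. Of the members at that level, Trp53inp1 (0.87), Mdm2 (0.82) and Ccng1 (0.72) had positive and Cdkn1a (-0.72) and Zmat3 (-0.54) negative correlations with Trp53, and Bax was near 0 (-0.07). The 6 libraries fall into 2 groups, so these values mostly restate the group difference.

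The regulators of p53, a list of ubiquitin ligases, kinases, acetyltransferases and ribosomal proteins that act on p53 or Mdm2, were mostly lower. Of 26 tested, all at least 10 times above the background, 20 were called lower and 1 higher, beside 56.6% and 4.77% of all such genes, with a median log2 change of -0.18 beside 0.14 over all genes and -0.19 over the 11097 genes at least 10 times above the background. The largest decreases were those of Rpl5 (-0.37), a ribosomal protein that binds Mdm2 and whose gene holds Snord21 on the same strand, Aurka (-0.33), a mitotic kinase, and Chek2 (-0.33), a DNA damage kinase that phosphorylates p53. Rrn3, an initiation factor of RNA polymerase I, was the one gene called higher, at 93.0 ± 3.19 CPM in siControl and 97.9 ± 1.27 CPM in siNsun2 (log2 change 0.08, adjusted p = 0.0489), and it kept its call only without siControl replicate 3 when single libraries were left out. The split followed the scaling, with 8 higher and 6 lower under total gene counts and 12 higher and 5 lower under cyclic loess. Of all genes tested, total gene counts called 37.1% higher and 2584 of 27603 lower, and cyclic loess called 15.1% higher and 17.6% lower. The counts under these scalings in the lists and markers below stand beside the same shares.

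Other p53 target genes moved in both directions. Of 41 tested, 14 were called higher and 12 lower, with a median log2 change of 0.05, against 23 higher and 4 lower under total gene counts. In the 35 of them that lay at least 10 times above the background, 9 were higher and 11 lower beside the 4.77% and 56.6% of all such genes. In the 6 nearer to it 5 were higher, beside 40.0% of the 16506 genes under 10 times the background. Perp, which encodes a junction protein linked to apoptosis, had the largest increase, from 1.94 ± 0.274 to 4.08 ± 0.629 CPM (log2 change 1.07, adjusted p = 2.65e-07), at 5.86 and 8.26 times the background. Tap1, a peptide transporter (0.76), and the death receptor gene Fas (0.70) came next. Tap1 lay at 4.76 and 5.40 times the background. Fas lay at 1.48 and 1.603 times only and shares its strand with Gm27818. Ddit4, an inhibitor of mTORC1 signalling, had the largest decrease, from 4.34 ± 0.412 to 2.41 ± 0.439 CPM (-0.84, adjusted p = 1.16e-05), followed by Trp53i11 (-0.49) and the phospholipid transfer protein gene Pltp (-0.41).

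The nearest relatives of the members moved in both directions as well. Of 15 tested, 3 were called higher and 5 lower, with a median of -0.20, against 4 higher and 2 lower under total gene counts. The 5 lower genes were among 9 that lay at least 10 times above the background, a share like the 56.6% of all such genes. Trp73 (log2 change 0.71) and Trp63 (0.46), which encode the p53 family members p73 and p63, were called higher, as was Zmat4 (0.47). Trp73 lay at 5.38 and 5.91 times the background in siControl and siNsun2, Zmat4 at 2.98 and 2.76 times and Trp63 at 1.57 and 1.45 times, and 40.0% of the 16506 genes under 10 times the background were called higher. The relative of Cdkn1a, the kinase inhibitor gene Cdkn1b, was lower (15.3 ± 0.344 to 10.2 ± 0.651 CPM, log2 change -0.58, adjusted p = 1.04e-08). Bak1, which acts like Bax, and Btg1, a relative of Btg2, were lower as well (both -0.46).

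The BCL2 family and the apoptosome had 9 of 19 tested genes called lower and 2 higher, with a median log2 change of -0.26, against 7 higher and 6 lower under total gene counts. Among the 13 at least 10 times above the background, 7 were called lower, a share near the 56.6% of all such genes. In the 6 nearer to it 2 were called lower and 2 higher, beside 2.66% lower and 40.0% higher of the 16506 genes under 10 times the background. The BH3-only gene Hrk (-0.58, at 6.001 and 2.68 times the background), Bak1 (-0.46) and the caspase inhibitor gene Xiap (-0.43) fell most. Bcl2 (0.38), the founding survival gene of the family, was called higher, at 1.91 and 1.66 times the background. Bcl2l2 was at 0 in all libraries and overlaps Gm20521 on the same strand.

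**Figure D5:**
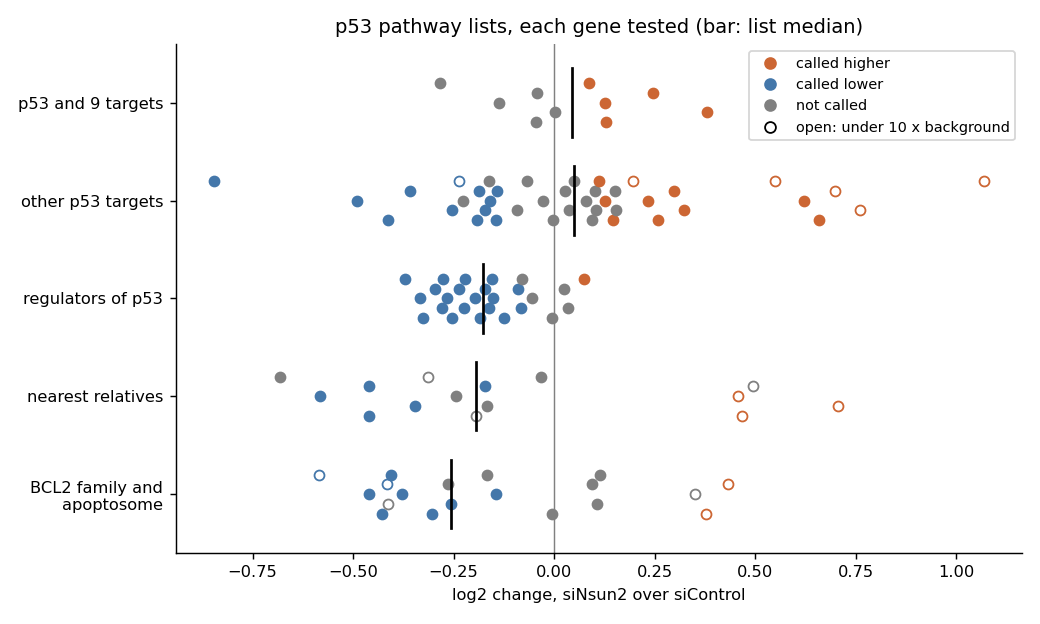
Log2 change of each tested gene of the p53 pathway lists. Each point is 1 gene, coloured by its call (orange higher, blue lower, grey not called) and drawn as a ring where the gene lay under 10 times the background. Vertical bars are list medians, at 0.04 for p53 with its 9 targets, 0.05 for other p53 targets, -0.18 for regulators, -0.20 for relatives and -0.26 for the BCL2 family.

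Markers of the stem cells and of other cells that such cultures may hold were read beside these results. Of 7 tested stem cell markers, 6 were called lower and none higher under TMM and 3 lower and 1 higher under total gene counts. All 7 had a mean of 32 CPM or more, where 70.4% to 87.0% of all genes in each range were called lower under TMM. The called decreases ran from -0.12 (Nanog) to -0.81 (Klf4, adjusted p = 7.46e-29, edgeR) on the log2 scale. The medians of all genes in these ranges were -0.19 to -0.22, so the decrease of Klf4 was larger than that of most genes of its level. The summed level of these markers went from 1238 to 1279 CPM over the siControl libraries to 1057 to 1081 CPM in siNsun2. Of 7 tested feeder fibroblast markers 3 were called lower, beside 24.3% of all genes tested under TMM. Under total gene counts 1 was lower and 1 higher, and under cyclic loess 4 were lower. The sums were 47.8 to 49.8 and 35.9 to 37.3 CPM, and Lum and Thy1 were near 0. Of the 3 lower under TMM, Col1a1 lay at 38.6 and 20.4 times the background and Col1a2 and Pdgfrb at 4.15 to 12.5 times. Lower calls under TMM made up 56.6% of genes at least 10 times above the background and 2.66% of those under it. Of 5 primitive endoderm markers 3 were called higher (1 under cyclic loess) and 1 lower, with overlapping sums of 22.6 to 24.0 and 20.2 to 24.6 CPM and Sox17 near 0. The 3 higher genes, Gata6, Pdgfra and Dab2, lay at only 1.40 to 1.88 times the background in both groups. Of all 16506 genes under 10 times the background, 40.0% were called higher. All 4 tested markers of 2-cell-like cells were called higher (2 under cyclic loess), from sums of 0.606 to 0.934 to sums of 2.39 to 2.57 CPM. Each lay under 4 times the background in both groups, where the same share of 40.0% applies. All genes under 1 CPM had a median log2 change of 0.60. The part of these markers in the changes of the p53 genes was not tested, and fewer cells of a type cannot be told apart from less RNA per cell in bulk samples.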

How the data were processed

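The deposited tables held raw read counts per gene, 1 table per library. Per the labels and the methods, the authors trimmed reads with Trimmomatic 0.39, aligned them with HISAT2 2.2.1 to mm10 and counted them with HTSeq 0.12.4. No source used here states the strand and feature options, and levels were taken per kb of gene span. Summary lines without a gene were dropped. The tables held 0 ERCC spike-in lines, so all values are relative to the other genes of a library. Gene positions came from GENCODE M21 (GRCm38), to which 99.9% of identifiers matched.

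All 6 siRNA libraries entered 1 model. edgeR 4.0.16 (quasi-likelihood, robust, TMM, filterByExpr with a minimum count of 10, limma 3.58.1, R 4.3.3) was run over all genes, and p-values were adjusted by Benjamini-Hochberg with a threshold of 0.05. SE values came from the F statistic and 95% intervals from 1.96 SE. The script was tested on simulated data with known changes but no trend of change with level. That test does not bear on the choice of scaling. Chi-square per degree of freedom between replicates ran from 3.85 to 5.53, above sampling noise, so no library was taken as a repeat sequencing of another. This cannot show whether the libraries came from separate cultures.

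Alternatives were DESeq2 1.42.0 and its size factors, total counts, factors from 11490 genes at least 10 times above the olfactory receptor background, cyclic loess with limma-voom, no filter, a filter of 1 CPM in 3 libraries, the replicate number as a block, and each library left out. The genes named from the other lists were the up to 3 called genes with the largest increase and decrease in each, and a gene that this rule names is not reported here. The members and the lists were chosen with earlier results of these data known. The K562 libraries were not used here.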

Additional observations from a re-analysis of the deposited data

Results flagged for a closer look

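One further mESC library, labelled Pscp1 WT, replicate 3, and read here as Pspc1 WT, belongs to another experiment and entered no comparison. It has no replicate here, so no test was made. With TMM factors over all 7 mESC libraries, 8 of the 10 genes were above the siControl range in it and 2 below. Of the 11097 tested genes at least 10 times above the background, 69.0% were above the siControl range in this library and 23.3% below. Ccng1 stood at 225 CPM, 3.32 times the siControl mean, where the siControl libraries ran from 67.1 to 68.0 CPM. Trp53 stood at 92.1 CPM (siControl 49.2 to 53.3), Mdm2 at 218 CPM (138 to 143) and Trp53inp1 at 187 CPM (117 to 125). Phlda3 (8.93 CPM), Btg2 (10.9 CPM), Bax (20.4 CPM) and Zmat3 (133 CPM) were also above the siControl range. Cdkn1a, at 34.2 CPM, and Bbc3, at 2.50 CPM, were below it, at 0.518 and 0.527 times the siControl mean. The library differed from siControl in depth too, with 91990658 reads in genes and 10.7% of records outside genes. The part of its experiment, depth or preparation in these values was not tested.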

How the results depend on the processing

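Trp53 and Btg2 were called higher under every alternative tried. DESeq2 size factors gave log2 changes of 0.069 for Mdm2, 0.065 for Ccng1 and 0.026 for Trp53inp1, no longer called, -0.11 for Cdkn1a, -0.10 for Zmat3 and -0.34 for Phlda3, now called, and -0.059 for Bax. They called 2 members higher and 3 lower, 0 regulators higher and 9 other targets higher. DESeq2 itself gave 0.065 for Ccng1, 0.026 for Trp53inp1, -0.11 for Cdkn1a, -0.10 for Zmat3, -0.34 for Phlda3 and -0.059 for Bax, and called 3 members higher and 3 lower, 0 regulators higher and 9 other targets higher. Total gene counts turned Cdkn1a to 0.14, Bbc3 to 0.044 and Zmat3 to 0.14 and called Bax (0.18). Factors from genes above background gave 0.15, 0.057 and 0.15 for the same genes and 0.20 for Bax. Each called 8 members higher, 8 regulators higher and 6 lower, 23 other targets higher and 4 lower, 2 relatives lower and 7 of the BCL2 family higher, and the latter factors also 5 of that family lower. All genes called lower fell from 6716 to 2584 and 2319. Cyclic loess turned Cdkn1a to 0.12 and Zmat3 to 0.17, both called, called Phlda3 lower (-0.48, 1 member lower), and left 4179 genes called higher, with 12 regulators higher and 5 lower, 7 other targets lower, and 5 relatives higher and 8 lower. Without a filter Trp53inp1 lost its call (0.070), Bax was -0.014 and 0 regulators were higher. The stricter filter turned Cdkn1a to 0.022 and Zmat3 to 0.026 and called 4 of the BCL2 family higher. By exon length 5 of 10 ranks were kept in each group. The causes of these differences were not tested.

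Leaving out each library in turn moved the log2 change of Trp53inp1 between 0.051 and 0.10, of Ccng1 between 0.10 and 0.15, of Phlda3 between -0.38 and -0.20 of Bax between -0.069 and 0.039, and, with no call, of Bbc3 between -0.22 and -0.059, of Cdkn1a between -0.061 and -0.027 and of Zmat3 between -0.070 and -0.027. The difference in ratio to Trp53 ran from 0.044 to 0.19 for Btg2, from -0.17 to -0.067 for Ccng1 and from -0.16 to -0.077 for Mdm2. It moved the members called lower between 0 and 1, regulators higher between 0 and 1, other targets higher between 9 and 15 and BCL2 family genes higher between 2 and 4. Without siNsun2 replicate 1, Ccng1 lost its call (0.098), Phlda3 was called lower, 9 other targets and 4 of the BCL2 family were higher. Without siControl replicate 1 or siNsun2 replicate 2, Trp53inp1 lost its call (0.051 and 0.075).

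With the replicate number as a block, 7016 genes were higher and 6682 lower, 5 members higher and 0 lower, and no call on any member or on any gene of the 4 other p53 pathway lists changed. No sign of pairing by number was seen. The deviations of same-numbered libraries correlated at -0.03, 0.05 and -0.04, and those of other-numbered libraries at -0.07 to 0.09. With so few libraries this cannot show whether the numbers pair the cultures. Scaling by spike-in was not run, because the tables hold 0 such lines, and the planned search for p53 elements around gene starts was not run, because no mouse genome was used here. The transcript search, the values of the Pspc1 WT library and the ratios under cyclic loess were chosen after seeing the data. Depth limits Bbc3 and Phlda3 most, with 243 to 348 reads per library.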
